A study of Mus musculus with 18 samples.

Results

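The genes examined here encode 10 chains of the receptors for T cell and inflammatory cytokines: Il4ra, Il13ra1, Il1r1, Il6ra, Il6st, Osmr, Lifr, Ifngr1, Ifngr2 and Tnfrsf1a. They were taken by gene symbol and not by a cut on their values, though earlier results of these data were known at the time. All 10 were found among the 20612 genes of the deposited expression table. All 10 also passed the filter on low values, an RPKM (reads scaled to transcript length and sequencing depth) of at least 1 in at least 2 libraries, as did 11890 genes in all. RNA-seq was done on muscle stem cells (MuSCs), the resident progenitors of skeletal muscle, of 4-month-old semi-cloned mice, which are obtained by injecting haploid embryonic stem cells into oocytes of B6D2F1 females and carry the strain label C57BL/6. Besides wild type (WT) there were mice with heterozygous mutations in Dmpk, Six5 and Mbnl1, called DSM-TKO (TKO), and mice that also had a heterozygous Dmwd mutation, called DSMD-QKO (QKO), which serve as a dosage model of myotonic dystrophy. All of the mice, WT included, descend from haploid cells that lack the H19-DMR and the IG-DMR, which are imprinting control regions, and the QKO haploid cells were made from a TKO line. Libraries of day 0 hold MuSCs as expanded in T cell conditional medium, and those of days 1 and 2 hold the cells once switched to a medium for differentiation. There were 18 libraries, 2 in each of the 9 groups of genotype and day. Nothing in the labels or methods says whether the 2 libraries came from separate cultures or mice, so the p-values measure no more than how far these libraries spread, and that spread may be technical.

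Cytokine receptors work as pairs or larger complexes. IL-4 and IL-13 bind the type II receptor, made of Il4ra and Il13ra1, which signals through JAK kinases and STAT6. IL-6, oncostatin M and leukemia inhibitory factor (LIF) share the signalling chain gp130, encoded by Il6st, which pairs with Il6ra, Osmr or Lifr and signals mainly through STAT3. Interferon-gamma binds Ifngr1 together with Ifngr2 and acts through JAK kinases, while Il1r1 and Tnfrsf1a, the signalling receptors for IL-1 and TNF, activate NF-kB. In muscle, LIF and IL-6 are known as regulators of myoblast proliferation, and IL-4 as a factor that promotes fusion of myoblasts with growing muscle cells.

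Depth, inferred from the steps of the RPKM values, was 34.8 to 60.7 M reads per library, and the members held 16 to 15681 reads. WT day 0 replicate 2 stood apart, with an RPKM total of 555791 against 370850 to 428739 in the other 17 libraries. For the genes named, day 0 values without it are given where leaving it out ended a call or moved a called value by over 1.5 times. Of the targeted genes, Six5 was lower at day 0 in TKO and QKO (by 0.61 ± 0.16 and 0.65 ± 0.16 on the log2 scale), Dmpk in QKO (by 0.96 ± 0.19, and -0.51 ± 0.19 in TKO, adjusted p = 0.0655) and Dmwd in QKO (by 1.11 ± 0.17). Both Six5 calls ended without WT replicate 2 (-0.40, adjusted p = 0.162, and -0.44, adjusted p = 0.0866), the TKO call also without TKO replicate 2 (0.127) and the QKO call without QKO replicate 2 (0.0567). Mbnl1 was at 18.9 and 7.23 (WT), 21 and 16.9 (TKO) and 12.1 and 17.1 RPKM (QKO), and was not called (0.63 ± 0.30 and 0.27 ± 0.30, or -0.00371 and -0.37 without WT replicate 2 and, called higher, 1.27 and 0.90 without WT replicate 1). As its mutation removes an exon, its gene level checks little. The muscle markers Myod1 and Pax7 were present in every library. None of 8 T cell markers reached 1 RPKM in any library, and Cd3d and Cd2 were listed at 0 throughout.

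In MuSCs before differentiation, several of these receptors were higher in the mutants, and none was called lower. In TKO 4 of the 10 members rose against WT (Il4ra, Il1r1, Il6st and Lifr), where 12.8% of the 11890 tested genes rose and 10.2% fell. In QKO 7 of 10 rose (those 4 with Osmr, Ifngr1 and Ifngr2), where 17.3% of all genes rose and 18.1% fell. The median log2 fold change of the members was 0.32 in TKO and 0.81 in QKO, beside 0.01 and -0.01 over all tested genes. Both comparisons share the WT libraries, and the members were chosen with earlier results of these data known. Their counts beside the shares of all genes are thus no independent evidence of an excess. Between the mutants 1 of 10 differed, Osmr, which was higher in QKO, where 1.53% of all genes were higher and 1.23% lower.

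A gene was called where its adjusted p was under 0.05 in limma on log2(RPKM + 1), fitted over all 18 libraries and adjusted over all tested genes of a comparison. Fold changes are log2 fold changes ± SE with 2 libraries a group, on a scale that understates the change of low genes. Without WT day 0 replicate 2 the counts of members called higher were 3 in TKO and 4 in QKO, and in a fit of the compared groups alone they were 1 (Il1r1) and 2 (Il4ra and Osmr).

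Markers of cell types and states also differed by genotype at day 0. Summed over 9 muscle stem cell and myoblast markers, the level was 1261 to 1328 RPKM in WT, 2036 to 2268 in TKO and 2070 to 2398 in QKO. This sum is set by its most abundant genes and was at 2204 to 2316 RPKM in WT at day 1. It thus does not measure stem cell identity, and the study reports similar levels of stem cell markers in mutant and WT MuSCs. The summed level of 6 genes of differentiating muscle was 609 to 897 RPKM in WT, 2755 to 4011 in TKO and 2082 to 2853 in QKO. The summed level of 7 fibroblast and fibro-adipogenic progenitor markers was 88.6 to 92.3 RPKM in WT, 175 to 179 in TKO and 175 to 226 in QKO, mainly from Ly6a (56.1 and 59.5 (WT), 83.7 and 80.3 (TKO) and 85.1 and 108 RPKM (QKO)) and Col3a1, while Pdgfra, Dcn and Lum were at no more than 0.433, 0.359 and 0.0393 RPKM in any day 0 library. Ly6a encodes Sca1, a surface protein that the cells counted as MuSCs in the study's flow cytometry had to lack, and the methods do not spell out a gate for the cultures sequenced here. Col1a1, also on this list, reached 1 RPKM in no day 0 library. Thy1, another of these markers, was at 0.0937 and 0.019 (WT), 9.64 and 7.79 (TKO) and 6.47 and 6.16 RPKM (QKO), and reached 1 RPKM only in mutant libraries of day 0. Their part in the receptor differences was not tested. In bulk RNA, fewer cells of a type and less RNA per cell cannot be told apart.

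**Figure D1:**
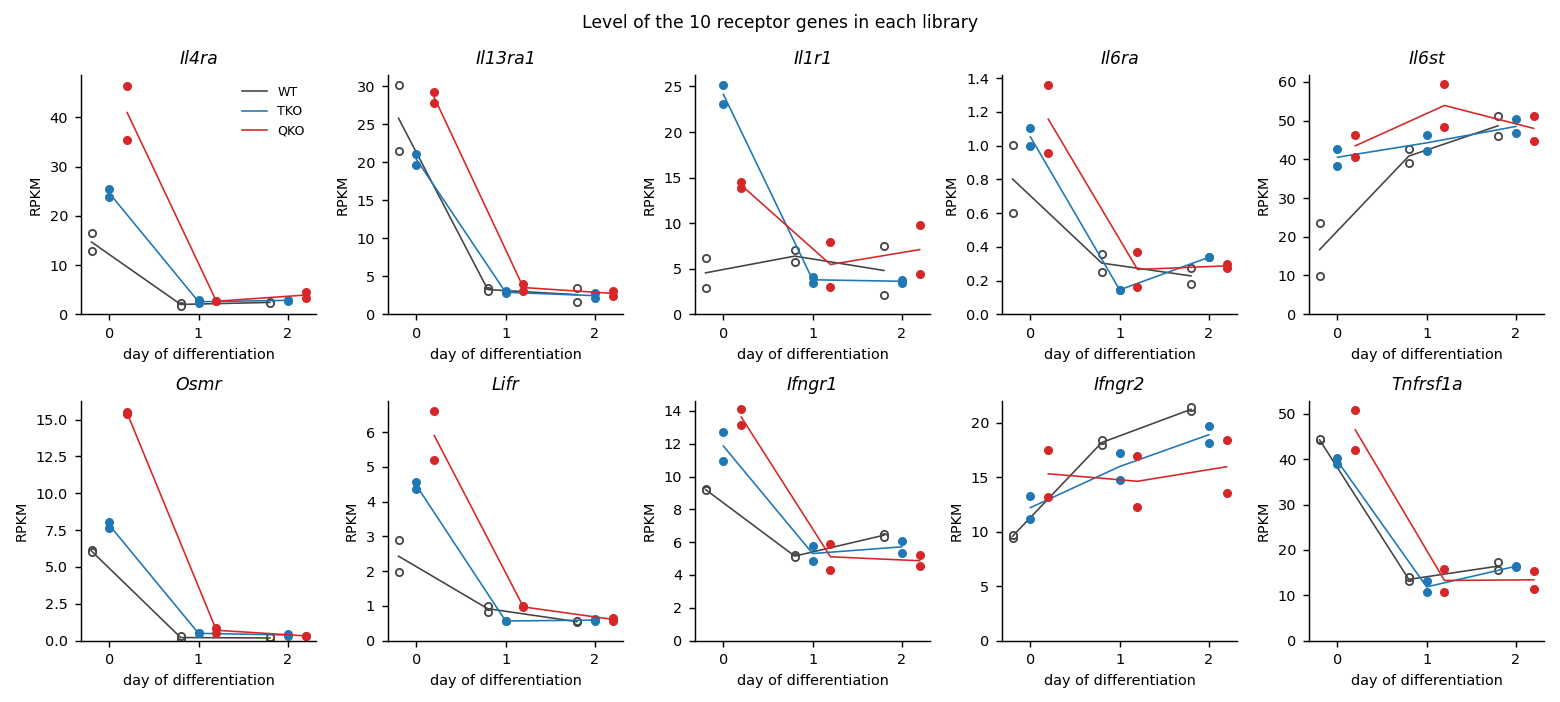
RPKM of the 10 receptor genes (vertical axes from 0) against the day of differentiation, 1 point per library, with lines through the means of the 2 libraries of a group (open grey points WT, blue TKO, red QKO). Il4ra, Osmr and Lifr stood in the order QKO, TKO, WT at day 0 and were at no more than 4.5, 0.881 and 1.01 RPKM in the 12 later libraries.

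The chains of the type II receptor changed unequally. Their promoter windows (RefSeq, GRCm38.p6, 250 bases before to 50 after the start site) are shown because both genes fell together on differentiation while only Il4ra was called between genotypes. Il4ra lies on chromosome 7 (125552271 to 125579474, plus strand, window chr7:125552021-125552320) and Il13ra1 on chromosome X (36112108 to 36171262, plus strand, window chrX:36111858-36112157). Capitals mark matches to the motifs searched, in Il4ra a CAGCTG E-box and a kappa-B site, and in Il13ra1 none.
Il4ra: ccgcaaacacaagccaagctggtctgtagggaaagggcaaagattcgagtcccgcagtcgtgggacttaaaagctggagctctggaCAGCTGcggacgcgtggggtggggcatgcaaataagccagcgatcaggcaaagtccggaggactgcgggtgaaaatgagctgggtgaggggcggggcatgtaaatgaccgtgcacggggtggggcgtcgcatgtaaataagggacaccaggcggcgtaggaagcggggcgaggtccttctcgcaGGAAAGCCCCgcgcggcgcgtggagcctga
Il13ra1: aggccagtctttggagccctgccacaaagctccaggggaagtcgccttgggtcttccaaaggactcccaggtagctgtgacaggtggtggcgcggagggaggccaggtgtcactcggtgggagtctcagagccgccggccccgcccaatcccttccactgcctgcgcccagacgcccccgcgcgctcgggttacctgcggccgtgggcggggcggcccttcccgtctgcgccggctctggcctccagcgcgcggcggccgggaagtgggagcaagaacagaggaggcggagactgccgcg

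Il4ra, the chain that binds IL-4, was at 16.6 and 12.8 (WT), 25.4 and 23.9 (TKO) and 46.5 and 35.5 RPKM (QKO) in MuSCs. The genotypes did not overlap, and QKO was highest. The rise against WT was 0.72 ± 0.18 in TKO (adjusted p = 0.0112), and in QKO it was 1.42 ± 0.18 (adjusted p = 0.000101). QKO exceeded TKO by 0.70 ± 0.18, which missed the threshold (adjusted p = 0.0531) and passed it under other scalings. Leaving out WT replicate 2 ended the TKO call (0.54, adjusted p = 0.0964), as did leaving out TKO replicate 1 (0.0725) or 2 (0.057), and the QKO rise without WT replicate 2 was 1.24 (adjusted p = 0.0012).

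Il13ra1, the partner with which Il4ra responds to IL-13, was at 30.1 and 21.4 (WT), 19.7 and 21.1 (TKO) and 29.2 and 27.8 RPKM (QKO) in MuSCs. The WT libraries spanned most of that range. Neither mutant passed, at -0.31 ± 0.22 in TKO (95% interval -0.78 to 0.17) and 0.16 ± 0.22 in QKO (-0.32 to 0.64). The ratio of Il4ra to Il13ra1 RPKM within a library was 0.552 and 0.595 (WT), 1.29 and 1.13 (TKO) and 1.59 and 1.28 (QKO). A common factor for a library does not move this ratio, but a trend on transcript length (5119 and 3744 bases) can. By RPKM, Il4ra was thus the lower chain in both WT libraries and the higher in all 4 mutant libraries.

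On differentiation both chains fell in every genotype. In the 12 libraries of days 1 and 2, Il4ra was at 1.74 to 4.5 RPKM (median 2.64) and Il13ra1 at 1.67 to 3.91 RPKM (median 3.03), below every day 0 library. From day 0 to day 1 Il4ra fell by 2.38 ± 0.18 in WT, 2.86 ± 0.18 in TKO and 3.52 ± 0.18 in QKO (adjusted p at most 7.45e-08), and Il13ra1 by 2.64 ± 0.22, 2.46 ± 0.22 and 2.72 ± 0.22 (at most 7.55e-07). The change of Il4ra in QKO differed from that in WT by -1.13 ± 0.25 (adjusted p = 0.0132). This difference did not pass in limma voom on reads recovered from the RPKM (-1.05, adjusted p = 0.0561). Nor did it in a limma fit of the compared groups alone (-1.13, adjusted p = 0.0847). The call also ended without WT day 1 replicate 1 (-1.01) or QKO day 0 replicate 1 (-0.94).

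Of the gp130 family, Osmr, the oncostatin M chain, lies on chromosome 15 (6813568 to 6874968, minus strand), 216 kb from Lifr, the LIF chain (7090610 to 7197489, plus strand). The Osmr window (chr15:6874264-6874563, minus strand) is shown because this member alone was called between QKO and TKO. It belongs to a start site inside the listed span of the gene. Base 6874968, where that span begins on the minus strand, lies outside it. The window's only match, in capitals, is to the pattern TGANTCA, with T as its middle base. The first base of the match is base 4 from the start site.
Osmr: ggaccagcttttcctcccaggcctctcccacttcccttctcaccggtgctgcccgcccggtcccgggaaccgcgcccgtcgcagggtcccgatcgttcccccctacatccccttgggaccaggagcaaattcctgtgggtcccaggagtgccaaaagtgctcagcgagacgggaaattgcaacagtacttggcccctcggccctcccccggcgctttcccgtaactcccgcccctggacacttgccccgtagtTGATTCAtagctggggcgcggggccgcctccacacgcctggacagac

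Osmr was at 6.14 and 6.01 (WT), 7.65 and 8.01 (TKO) and 15.4 and 15.5 RPKM (QKO) in MuSCs. The libraries of a genotype lay close together and the genotypes did not overlap. The change against WT was 0.32 ± 0.14 in TKO (adjusted p = 0.12), and in QKO it was 1.22 ± 0.14 (adjusted p = 6.33e-05, and 1.20 without WT replicate 2), and QKO exceeded TKO by 0.90 ± 0.14 (adjusted p = 0.0049). That last call ended with a pseudocount of 0.1 (0.97, adjusted p = 0.227) and in a fit of the compared groups alone (0.0761). After day 0 Osmr was at 0.0874 to 0.881 RPKM (median 0.326), a fall by day 1 of 2.56 ± 0.14 in WT, 2.57 ± 0.14 in TKO and 3.28 ± 0.14 in QKO (adjusted p at most 1.7e-08).

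Lifr was at 2.88 and 1.97 (WT), 4.37 and 4.55 (TKO) and 5.21 and 6.6 RPKM (QKO) in MuSCs, again without overlap of the genotypes. The rise was 0.68 ± 0.14 in TKO (adjusted p = 0.00409), and in QKO it was 1.02 ± 0.14 (adjusted p = 0.000261). Without WT replicate 2 the values were 0.49 and 0.82 (adjusted p = 0.0441 and 0.00253). With the trend of each library on transcript length removed, the values were 0.33 in TKO, which did not pass (adjusted p = 0.0568), and 0.52 in QKO. After day 0 Lifr was at 0.535 to 1.01 RPKM (median 0.593). It fell by day 1 by 0.83 ± 0.14 in WT, 1.80 ± 0.14 in TKO and 1.80 ± 0.14 in QKO, and the mutants differed from WT in this change by -0.98 ± 0.20 (adjusted p = 0.00927) and -0.98 ± 0.20 (adjusted p = 0.00999).

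The shared chain Il6st, on chromosome 13 (112464070 to 112506860), did not fall with its partners on differentiation. It was at 23.4 and 9.92 (WT), 38.3 and 42.7 (TKO) and 40.6 and 46.3 RPKM (QKO) in MuSCs. All mutant libraries lay above both WT libraries, which differed more between themselves than the mutant libraries did. The rise was 1.34 ± 0.26 in TKO (adjusted p = 0.00248), and in QKO it was 1.44 ± 0.26 (adjusted p = 0.00131), and without WT replicate 2, the lower library, 0.76 (adjusted p = 0.00544) and 0.86 (adjusted p = 0.00262).

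After day 0 Il6st was the most abundant of the members in all 12 libraries, at 39.1 to 59.4 RPKM (median 46.5). From day 0 to day 1 it rose in WT by 1.36 ± 0.26 (adjusted p = 0.000452; 0.77 without WT day 0 replicate 2), and its changes in TKO (0.12 ± 0.26) and QKO (0.30 ± 0.26) did not pass. The difference of these changes from WT was -1.23 ± 0.37 in TKO (adjusted p = 0.0539), and in QKO it was -1.06 ± 0.37 (adjusted p = 0.0851). Without WT day 0 replicate 1 it passed in both, at -1.81 and -1.64.

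Il6ra, the chain that binds IL-6, was the least abundant member at day 0, at 1 and 0.6 (WT), 0.999 and 1.1 (TKO) and 0.954 and 1.36 RPKM (QKO). The genotypes overlapped and neither mutant passed (0.20 ± 0.14, adjusted p = 0.31 in TKO, and 0.26 ± 0.14, adjusted p = 0.151 in QKO). The ratio of Il6st to Il6ra RPKM was 16.5 to 42.6 at day 0 and 119 to 321 later. Il6ra fell by day 1 by 0.46 ± 0.14 in WT (adjusted p = 0.00968), 0.84 ± 0.14 in TKO and 0.77 ± 0.14 in QKO, and the WT call ended without WT day 0 replicate 1 (0.0919) or WT day 1 replicate 1 (0.0691).

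Il1r1, the IL-1 receptor on chromosome 1 (40222480 to 40316201), had the largest genotype difference of the 10 members. It was at 6.22 and 2.86 (WT), 25.2 and 23.1 (TKO) and 13.8 and 14.5 RPKM (QKO) in MuSCs. Here TKO stood highest, and the genotypes did not overlap. The rise was 2.25 ± 0.46 in TKO (adjusted p = 0.00362), and in QKO it was 1.52 ± 0.46 (adjusted p = 0.0217), and the difference between the mutants did not pass (-0.73 ± 0.46, 95% interval -1.73 to 0.27). Without WT replicate 2 the values were 1.80 (adjusted p = 0.0494) and 1.07, which did not pass (0.183), and the QKO call ended also without QKO replicate 1 (0.075) or 2 (0.0873).

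At later days the libraries of a group differed widely for Il1r1, at 7.53 and 2.08 RPKM in WT day 2, 7.96 and 2.96 in QKO day 1 and 9.78 and 4.41 in QKO day 2, whereas the 4 TKO libraries lay at 3.48 to 4.08. The change to day 1 was 0.48 ± 0.46 in WT (adjusted p = 0.38), a fall of 2.40 ± 0.46 in TKO (adjusted p = 0.000602) and a fall of 1.35 ± 0.46 in QKO (adjusted p = 0.0233). The QKO fall did not pass without QKO day 1 replicate 2 (-0.76, adjusted p = 0.241) or without QKO day 0 replicate 1 (0.0737) or 2 (0.0868). TKO differed from WT in this change by -2.87 ± 0.66 (adjusted p = 0.0151), which did not pass without WT day 0 replicate 2 (0.0607), WT day 1 replicate 1 (0.06), TKO day 0 replicate 2 (0.0522) or TKO day 1 replicate 1 (0.0582).

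Il1rap, the accessory chain with which Il1r1 signals, moved in the same direction at day 0. It was at 3.9 and 1.22 (WT), 10.2 and 7.4 (TKO) and 6.47 and 6.48 RPKM (QKO) in MuSCs. The rise was 1.55 ± 0.27 in TKO (adjusted p = 0.00102), and in QKO it was 1.18 ± 0.27 (adjusted p = 0.00485). Leaving out WT replicate 2 lowered the values by over 1.5 times, to 0.98 and 0.61 (adjusted p = 0.00338 and 0.0346). In the later libraries it was at 0.254 to 0.724 RPKM.

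**Figure D2:**
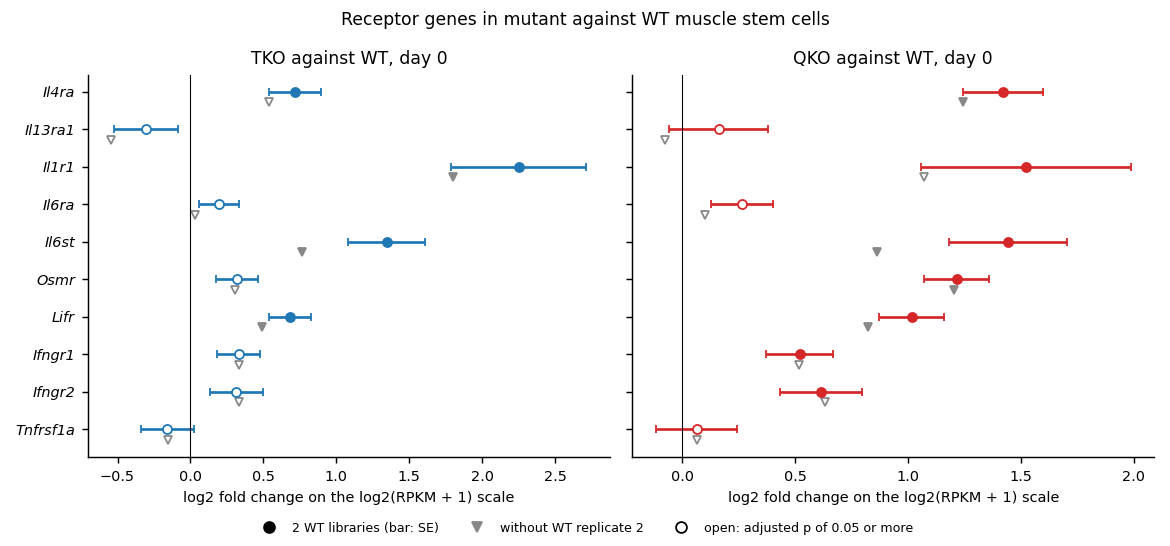
Log2 fold change of each receptor gene in TKO (left, blue) and QKO (right, red) against WT MuSCs at day 0. Circles with SE bars use 2 libraries a group, grey triangles leave out WT replicate 2, and open symbols did not pass; Il6st moved from 1.34 to 0.76 in TKO and Osmr from 1.22 to 1.20 in QKO.

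The interferon-gamma receptor chains were higher in QKO MuSCs by smaller amounts. The Ifngr2 window (chr16:91546809-91547108, plus strand, of a gene on chromosome 16 at 91547059 to 91564007) is shown because its matches, in capitals, lie next to each other: TTC and GAA spaced by 4 bases, the spacing preferred by STAT6, from base -91, and kappa-B from base -75.
Ifngr2: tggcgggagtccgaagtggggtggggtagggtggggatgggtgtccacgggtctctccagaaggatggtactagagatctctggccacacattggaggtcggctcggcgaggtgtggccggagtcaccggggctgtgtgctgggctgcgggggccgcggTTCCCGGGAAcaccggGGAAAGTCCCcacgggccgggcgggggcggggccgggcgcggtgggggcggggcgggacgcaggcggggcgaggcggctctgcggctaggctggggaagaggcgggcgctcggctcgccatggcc

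Ifngr1, the chain that binds interferon-gamma (chromosome 10, 19591949 to 19610229), was at 9.21 and 9.2 (WT), 12.7 and 11 (TKO) and 13.1 and 14.1 RPKM (QKO) in MuSCs. All mutant libraries lay above WT, and QKO above TKO. The change was 0.33 ± 0.15 in TKO (adjusted p = 0.12), and in QKO it was 0.52 ± 0.15 (adjusted p = 0.0162), and Ifngr1 no longer passed in QKO when WT replicate 2 (0.051) was left out or QKO replicate 2 (0.0772).

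Ifngr2, the chain needed for signalling, was at 9.46 and 9.72 (WT), 11.2 and 13.3 (TKO) and 17.5 and 13.2 RPKM (QKO) in MuSCs. All mutant libraries lay above WT, and those of TKO and QKO overlapped. The change was 0.32 ± 0.18 in TKO (adjusted p = 0.217), and in QKO it was 0.61 ± 0.18 (adjusted p = 0.019), and Ifngr2 no longer passed in QKO when WT replicate 2 (0.059) was left out or QKO replicate 1 (0.42, adjusted p = 0.151).

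On differentiation these chains moved apart. Ifngr1 fell by day 1 by 0.73 ± 0.15 in WT, 1.03 ± 0.15 in TKO and 1.27 ± 0.15 in QKO (adjusted p at most 0.000674), to 4.3 to 6.51 RPKM (median 5.29) in the later libraries. Ifngr2 rose in WT by 0.86 ± 0.18 (adjusted p = 0.000907) and was at 0.36 ± 0.18 in TKO and -0.07 ± 0.18 in QKO, neither of which passed. QKO differed from WT in this change by -0.92 ± 0.26 (adjusted p = 0.0356), a call that ended in 7 of 18 fits that left out a library, with values of -1.14 to -0.71 over the 18. The ratio of Ifngr2 to Ifngr1 RPKM was 0.877 to 1.33 at day 0 and 2.61 to 4.06 later.

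Tnfrsf1a, the main TNF receptor (chromosome 6, 125349723 to 125362483), was at 44.2 and 44.4 (WT), 40.3 and 38.9 (TKO) and 50.9 and 42.1 RPKM (QKO) in MuSCs. QKO overlapped WT, and TKO lay below both. Neither mutant passed, at -0.16 ± 0.18 in TKO (95% interval -0.55 to 0.23) and 0.06 ± 0.18 in QKO (-0.33 to 0.45). It fell by day 1 by 1.64 ± 0.18 in WT, 1.67 ± 0.18 in TKO and 1.75 ± 0.18 in QKO (adjusted p at most 4.14e-06), and was at 10.6 to 17.3 RPKM (median 14.7) in the later libraries.

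The promoter windows were searched on both strands for TTCNNNGAA (the STAT3 spacing), TTC and GAA spaced by 4 bases, kappa-B, CAGCTG and TGANTCA. A match was found in 6 of the 12 windows of the 10 genes. Of 32851 RefSeq windows of this length 8.30%, 6.95%, 8.46%, 16.3% and 7.81% held these motifs in turn. The share with any of the 5 motifs, which cannot be lower than the highest of these, was not computed. The count of 6 can thus not be called an excess. Besides the windows shown, a kappa-B match lay in a window of Il1r1, CAGCTG in a window of Lifr and TTCNNNGAA in that of Tnfrsf1a. The windows of Osmr, Lifr and Il1r1 belong to start sites inside the listed gene spans and do not hold the first bases of these spans.

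Most members changed in each genotype between day 0 and day 1. The change of medium, time and differentiation coincide there and cannot be told apart. From day 0 to day 1, 7 of 10 fell and 2 rose (Il6st and Ifngr2) in WT, where 46.1% of all genes fell and 20.4% rose. In TKO 8 fell and 0 rose (42.1% and 15.8% of all genes), and in QKO 8 fell and 0 rose (42.4% and 15.4%). The median of the members was -0.78 in WT, -1.74 in TKO and -1.55 in QKO, beside -0.34, -0.31 and -0.32 over all genes. Il6ra and Osmr, 2 of the members that fell, reached 1 RPKM only in day 0 libraries, so that the filter partly fixed their fall.

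That shift of all genes depends on the scaling. Median-ratio scaling raised the median of all genes by 0.32, 0.30 and 0.32 in WT, TKO and QKO, and the share of calls that were higher from 30.7%, 27.3% and 26.6% to 49%, 48.9% and 48.6%. On that scale 7 members fell and 2 rose in WT, 8 fell and 1 rose in TKO (Ifngr2, 0.70), and 7 fell and 1 rose in QKO (Il6st, 0.67), where Il1r1 no longer passed (-1.01). Quantile normalization left 5 falling in WT, without Il6ra (-0.25) and Ifngr1 (-0.29).

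The mutants differed from WT in the change to day 1 for 2 members in TKO (Il1r1 and Lifr), where 9.34% of all genes did, and for 4 in QKO (Il4ra, Osmr, Lifr and Ifngr2), where 11% did. Each such difference is the gap between mutant and WT at day 1 less that gap at day 0. These members were each called higher in that mutant at day 0, and no member was called between genotypes at day 1. Partly restating those day 0 rises, all of these differences were negative. That of Osmr, -0.72 ± 0.20 (adjusted p = 0.0387), turned to 0.14 with a pseudocount of 0.1 and to 0.50 in limma voom on reads recovered from the RPKM (adjusted p = 0.895 and 0.629), and passed in only 5 of 18 fits that left out a library. Without WT day 0 replicate 2 the counts were 1 and 2.

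**Figure D3:**
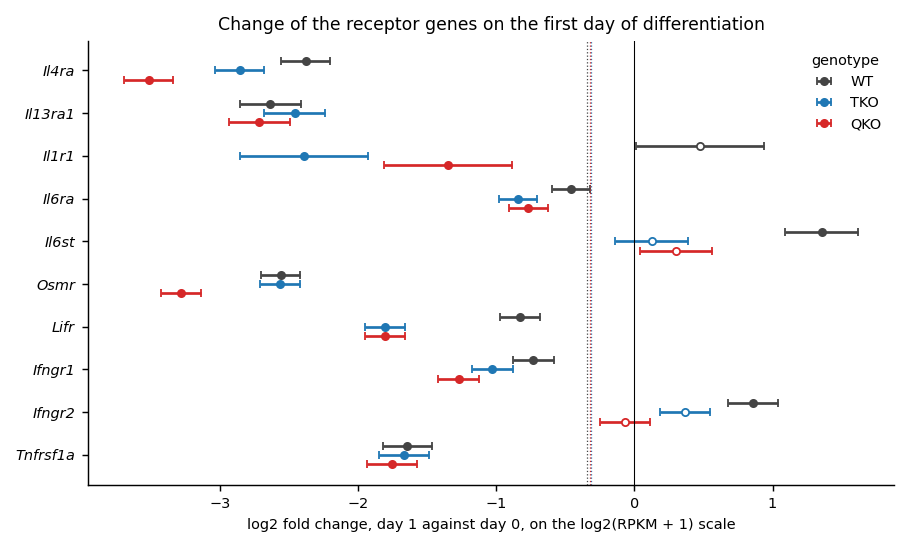
Log2 fold change of each receptor gene from day 0 to day 1 with SE bars in WT (grey), TKO (blue) and QKO (red), 2 libraries a group; open symbols did not pass and dotted lines mark the median of all tested genes in each genotype. Il4ra, Il13ra1, Osmr and Tnfrsf1a fell in each genotype, and Il6st and Ifngr2 rose in WT.

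After day 0 no member was called between genotypes by limma. The counts were 0 of 10 for TKO against WT at day 1 (2.08% of all genes) and day 2 (0.109%), QKO against WT at day 1 (2.76%) and day 2 (0.345%), and QKO against TKO at day 1 (0.252%) and day 2 (0.74%). At an unadjusted p under 0.05 these comparisons held 1, 0, 1, 3, 1 and 0 members in turn, and limma voom called 0 in each. Nearest to a call was Osmr in QKO at day 1, at 0.515 and 0.881 RPKM against 0.0874 and 0.319 in WT (0.50 ± 0.14, adjusted p = 0.0825), which passed without WT day 0 replicate 1 (0.0492) or 2 (0.0494).

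From day 1 to day 2 limma called 0 of 10 members in WT (15.4% of all genes), TKO (6.62%) and QKO (3.04%). At an unadjusted p under 0.05 there were 0, 1 and 2, and limma voom called 0. In the difference of that change from WT, 0 members were called in TKO (0% of all genes) and QKO (0.00841%), with 0 at an unadjusted p under 0.05 and 0 by limma voom.

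Across the 9 groups, the day 0 groups stood above all later groups for Il4ra, Il13ra1, Il6ra, Osmr, Lifr, Ifngr1 and Tnfrsf1a. For Il4ra, Osmr, Lifr and Ifngr1 the day 0 groups themselves did not overlap, in the order QKO, TKO, WT. How many of all genes show such orders was not counted, so these orders only describe the members. For Il1r1 only TKO and QKO day 0 stood apart from the other groups, and for Il6st only WT day 0 did, as the lowest. Ifngr2 was lowest in WT at day 0 and highest in WT at day 2 (21.1 and 21.4 RPKM).

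Interferon-gamma targets were lower in the mutant MuSCs, while the chains of its receptor were not. Of 18 targets 17 were tested, and all 17 fell in TKO (median -1.53), where neither receptor chain was called and 10.2% of all genes fell. Ciita and Cxcl9 reached 1 RPKM only in WT and QKO libraries of day 0, which partly fixed their sign. Lower interferon response genes in TKO were known when the list was drawn up, so the count is no independent evidence of its direction. In QKO 9 of 17 fell and 0 rose (median -0.57), beside 18.1% of all genes that fell, and 13 were higher in QKO than in TKO, as were 1.53% of all genes.

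Gbp2, an interferon-induced GTPase, was at 294 and 226 (WT), 48 and 43.9 (TKO) and 196 and 102 RPKM (QKO) in MuSCs. It was lowest in TKO (-2.46 ± 0.24 against WT, adjusted p = 1.06e-05), and higher in QKO than in TKO by 1.60 ± 0.24 (adjusted p = 0.00354, and 0.0536 without TKO replicate 2). Socs1, the feedback inhibitor of this pathway, fell in both mutants, by 1.53 ± 0.26 and 1.75 ± 0.26. Psmb8, an immunoproteasome subunit, fell in QKO by 1.37 ± 0.22, and Psmb9, another, was higher in QKO than in TKO by 1.58 ± 0.24, a call that ended without TKO replicate 2 or QKO replicate 1 (adjusted p = 0.0561 and 0.0622).

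The TKO count was 16 to 17 over the fits that left out a library, and the QKO count was 7 without WT replicate 2. Without QKO replicate 2, 4 fell and 1 rose. Between QKO and TKO it was 7, 4 and 5 without TKO replicate 1, TKO replicate 2 and QKO replicate 1. By day 1 the list fell in 17, 16 and 17 of 17 in WT, TKO and QKO (medians -3.79, -3.01 and -4.10), and Gbp2 was at 0.476 to 1.48 RPKM in the 6 day 1 libraries. Over all genes 46.1%, 42.1% and 42.4% fell, and 7 of the 17 reached 1 RPKM only in day 0 libraries, so that their fall was partly fixed by the filter.

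All 14 JAK-STAT signalling genes were tested, and 1 rose and 4 fell in TKO, while 7 rose and 1 fell in QKO. Over all genes 12.8% rose and 10.2% fell in TKO, and 17.3% and 18.1% in QKO. Stat6, the factor downstream of Il4ra, was at 6.28 and 6.13 (WT), 13.2 and 12.5 (TKO) and 21.3 and 16.7 RPKM (QKO) in MuSCs. Its genotypes stood apart in the order of Il4ra. The rise was 0.94 ± 0.24 in TKO (adjusted p = 0.0135), and in QKO it was 1.46 ± 0.24 (adjusted p = 0.000681). The TKO call ended without WT replicate 2, TKO replicate 1 or TKO replicate 2, at adjusted p values of 0.0624, 0.0745 and 0.0685.

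Stat2 and Irf9, which act downstream of type I interferon, fell in TKO by 1.89 ± 0.29 and 1.02 ± 0.17, and Irs2, an adaptor of the IL-4 receptor, rose in QKO by 1.16 ± 0.29 (0.53, adjusted p = 0.0767, without WT replicate 2, and 1.78 without WT replicate 1). Without WT replicate 2 the list held 0 higher and 3 lower genes in TKO and 2 and 0 in QKO. Without WT replicate 1 it held 7 and 4 in TKO, without TKO replicate 1 or 2, 0 and 3 in TKO, and without QKO replicate 1 or 2, 4 and 0 in QKO. By day 1, 8, 8 and 10 of the 14 fell in WT, TKO and QKO, beside 46.1%, 42.1% and 42.4% of all genes. Jak3 reached 1 RPKM only in day 0 libraries, so that the filter partly fixed its sign.

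**Figure D4:**
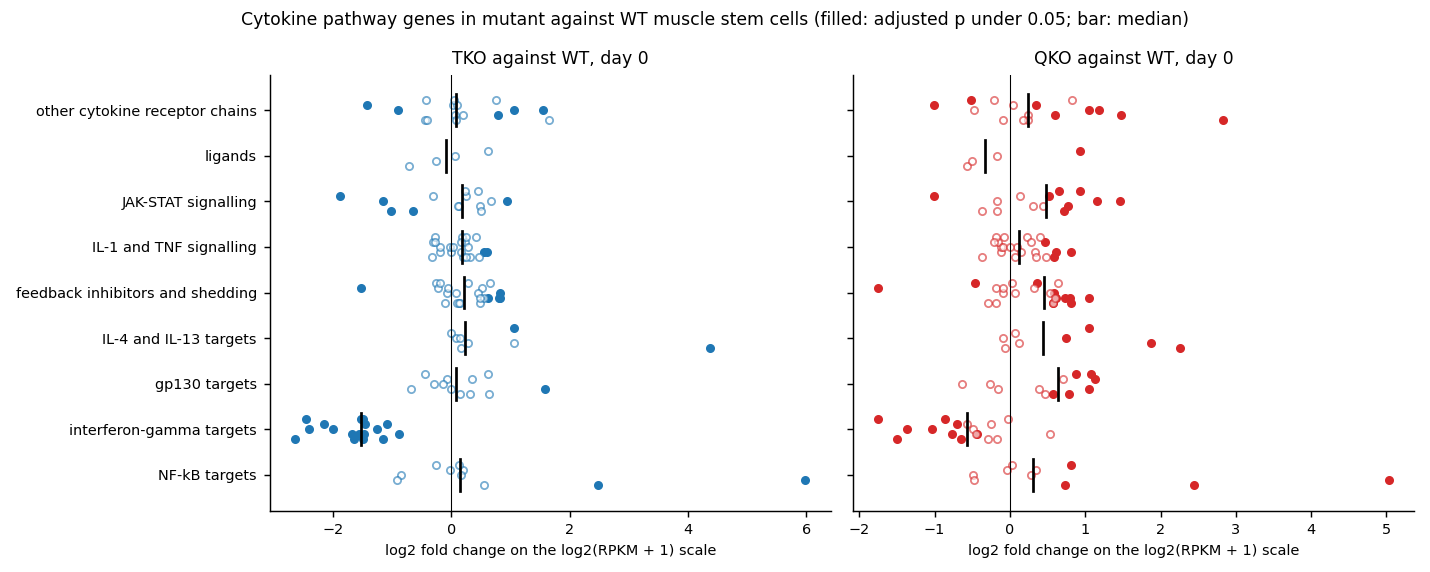
Log2 fold change of the tested genes of 9 cytokine pathway lists in TKO (left) and QKO (right) against WT MuSCs at day 0, 1 point per gene, filled where the adjusted p was under 0.05, with a bar at the median of a list. All 17 interferon-gamma targets lie below 0 and are filled in TKO, and the points farthest to the right are the chemokine gene Ccl7 (5.99 in TKO and 5.03 in QKO).

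Of 12 targets of IL-4 and IL-13, 8 were tested, and 2 rose in TKO (Ccl11 and Il13ra2) and 4 in QKO (these with Ccl17 and Vcam1), where 12.8% and 17.3% of all genes rose. Ccl11 and Il13ra2 reached 1 RPKM only in mutant libraries of day 0, so the filter partly fixed these counts. Ccl11, an eosinophil chemokine, was at 0.015 and 0.0152 (WT), 12 and 32.6 (TKO) and 4.24 and 3.51 RPKM (QKO) in MuSCs, and was lower in QKO than in TKO (-2.11 ± 0.29, adjusted p = 0.00173). Il13ra2, a decoy receptor for IL-13, was at 0 and 0.029 (WT), 0.652 and 1.71 (TKO) and 1.42 and 0.806 RPKM (QKO) in MuSCs and listed at 0 in all 12 later libraries. All 4 mutant libraries lay above WT. The chemokine Ccl17, which reached 1 RPKM in no WT library of day 0, rose in QKO by 1.87 ± 0.38 (1.24 without QKO replicate 1), and Vcam1, an adhesion molecule, by 0.75 ± 0.21. Without WT replicate 2 the counts were 2 and 3, and the call of Vcam1 ended (0.167), as it did without QKO replicate 1 or 2 (0.0696 and 0.056). By day 1, 2, 5 and 5 of the 8 fell in WT, TKO and QKO and 1, 0 and 2 rose (medians -0.00568, -1.06 and -1.22), beside 46.1%, 42.1% and 42.4% of all genes that fell and 20.4%, 15.8% and 15.4% that rose. Ccl11, Cish and Il13ra2 reached 1 RPKM only in day 0 libraries, so the filter partly fixed these counts and medians. Near 0 in WT at day 0, Ccl11 and Il13ra2 had little room to fall there. Vcam1 fell by 3.74 ± 0.21 in WT, 4.00 ± 0.21 in TKO and 4.57 ± 0.21 in QKO.

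Of 14 gp130 targets 12 were tested, and 1 rose in TKO and 6 in QKO, with 0 lower, where 12.8% and 17.3% of all genes rose and 10.2% and 18.1% fell. The repressor gene Bcl6 rose in both, by 1.58 ± 0.29 and 1.05 ± 0.29, the latter a call that ended without WT replicate 2 or QKO replicate 2 (adjusted p = 0.0908 and 0.0983). In QKO the transcription factor Cebpd rose by 1.13 ± 0.41 (adjusted p = 0.0466) and the acute phase gene Saa3 by 1.07 ± 0.37 (adjusted p = 0.0357). The call of Cebpd ended in 14 of the 18 fits that left out a library, and its value was 0.52 and 1.75 when WT replicate 1 or 2 was left out and 0.42 and 1.85 when QKO replicate 1 or 2 was. That of Saa3 ended without WT replicate 1 (0.69) or QKO replicate 1 (0.47) and was 1.68 without QKO replicate 2. The QKO count was 3 without WT replicate 2, and 2 rose and 1 fell without QKO replicate 1. The TKO count was 3 without WT replicate 1, and 2 without WT day 2 replicate 1 or 2.

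By day 1, 9, 8 and 10 of the 12 gp130 targets fell in WT, TKO and QKO, and 2, 2 and 1 rose, beside 46.1%, 42.1% and 42.4% of all genes that fell. Socs3, the feedback inhibitor of gp130, fell by 3.40 ± 0.20, 3.34 ± 0.20 and 4.07 ± 0.20, from 16.6 to 32.5 RPKM in the 6 day 0 libraries to 0.621 to 1.23 in the 6 day 1 libraries. Bcl3 fell by 3.87 ± 0.25, 4.10 ± 0.25 and 4.24 ± 0.25. It reached 1 RPKM only in day 0 libraries, so that the filter partly fixed its fall and its place in the counts.

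Of 19 NF-kB targets 10 were tested, and 2 rose in TKO and 4 in QKO, with 0 lower, where 12.8% and 17.3% of all genes rose and 10.2% and 18.1% fell. The monocyte chemokine gene Ccl2 was at 7.18 and 11.7 (WT), 60.6 and 51.6 (TKO) and 82.6 and 35.7 RPKM (QKO) in MuSCs. All 4 mutant libraries lay above WT, a rise of 2.48 ± 0.43 and 2.44 ± 0.43, and it was at 0.168 to 1.51 RPKM in the day 1 libraries. The QKO count was 2 without WT replicate 2, and in TKO 2 rose and 2 fell without WT replicate 1.

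Of 24 IL-1 and TNF signalling genes 22 were tested, and 2 rose in TKO (Rel, an NF-kB subunit, by 0.59 ± 0.20, and Traf6, an adaptor, by 0.56 ± 0.19) and 4 in QKO (Rel by 0.80 ± 0.20), with 0 lower. Over all genes 12.8% rose in TKO and 17.3% in QKO. Every one of these calls ended without WT replicate 2, where Rel was at 0.34 and 0.55 and Traf6 in TKO at 0.18, and the TKO calls of Rel and Traf6 ended in 11 and 17 of the 18 fits that left out a library. In TKO the count ranged from 0 to 9 and in QKO from 0 to 10 over fits that left out a library, with 0 in both without WT replicate 2 and the highest without WT replicate 1. By day 1, 14, 11 and 12 of the 22 fell in WT, TKO and QKO, beside 46.1%, 42.1% and 42.4% of all genes, among them Ripk1, a kinase of TNF signalling, by 2.09 ± 0.16, 1.77 ± 0.16 and 1.75 ± 0.16.

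Of 28 other cytokine receptor chains 16 were tested, and 3 rose and 2 fell in TKO, while 6 rose and 2 fell in QKO. The shares over all genes were 12.8% and 10.2% in TKO and 17.3% and 18.1% in QKO. Il13ra2 and Il17rd reached 1 RPKM only in mutant libraries of day 0, so the filter partly fixed these counts too. Il15ra, the IL-15 receptor, fell in TKO by 1.42 ± 0.16, from 8.99 and 11.8 RPKM in WT to 3.08 and 3.39. Il11ra1, the IL-11 receptor that pairs with gp130, rose in QKO by 1.47 ± 0.19, from 1.82 and 1.59 RPKM to 7.05 and 6. The counts were 2 and 1 in TKO without WT replicate 2, TKO replicate 1 or TKO replicate 2, and 4 and 1 in QKO without WT replicate 2 or QKO replicate 1.

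All 22 feedback inhibitors and shedding enzymes were tested, and 4 rose and 1 fell in TKO, while 8 rose and 2 fell in QKO, beside 12.8% and 10.2% of all genes in TKO and 17.3% and 18.1% in QKO. Tollip and Sigirr, inhibitors of IL-1 receptor signalling, rose in TKO by 0.83 ± 0.15 and 0.81 ± 0.19, and the phosphatase Ptpn6 and the NF-kB inhibitor Tnfaip3 rose in QKO by 1.05 ± 0.25 and 0.81 ± 0.27. Ptpn6 reached 1 RPKM in no WT library, so that the filter partly fixed its rise. The call of Sigirr ended without TKO replicate 1 (adjusted p = 0.0611), that of Ptpn6 without QKO replicate 1 (0.0564) and that of Tnfaip3 without WT replicate 2 or QKO replicate 1 (0.208 and 0.255). In QKO 3 rose and 2 fell without WT replicate 2, and 2 rose and 1 fell without QKO replicate 1. In TKO 10 rose and 2 fell without WT replicate 1, and 2 rose and 1 fell without TKO replicate 1 or 2.

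Of 17 ligand genes 4 were tested (Clcf1, Ctf1, Cntf and Lif), 11 stayed under 1 RPKM in every library, and Il4, Il13, Ifng and Il2 were listed at 0 in all 18. Of the 4 tested, 0 rose in TKO and 1 in QKO, beside 12.8% and 17.3% of all genes. Lif rose in QKO by 0.93 ± 0.26, at 0.242 and 0.107 (WT), 0.729 and 0.885 (TKO) and 1.79 and 0.794 RPKM (QKO) in MuSCs, but leaving out WT replicate 2 or QKO replicate 1 ended this call, at 0.85 and 0.61 (adjusted p = 0.0821 and 0.133). Clcf1, which signals through gp130 and Lifr, fell by day 1 by 2.62 ± 0.26 in WT, 1.68 ± 0.26 in TKO and 1.75 ± 0.26 in QKO. The lists share some genes, such as Socs1 and Il13ra2.

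For the 9 members whose group means spanned over 1 log2 unit, all but Il6ra, the genes with the most similar pattern were sought, by the mean absolute difference of log2(RPKM + 1), less each gene's own mean, over the 18 libraries. For Il4ra they were Tmem173 (0.222) and Rnf19b (0.238). For Il13ra1 they were Wee1 (0.165) and Steap1 (0.178). For Il1r1 they were Dtx4 (0.357) and Lpl (0.387). For Il6st they were C1galt1 (0.119) and Pdpk1 (0.12). For Osmr they were Kirrel (0.211) and Lfng (0.216). For Lifr they were Hif1a (0.14) and Fbxo32 (0.146). For Ifngr1 they were Parn (0.0874) and Ap1b1 (0.114). For Ifngr2 they were Dirc2 (0.11) and Kdm4b (0.115). For Tnfrsf1a they were Ephb4 (0.101) and Gusb (0.102). All genes were read from the same libraries and groups, and the values are a description.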

How the data were processed

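RNA was sequenced from 18 libraries, 2 for each genotype and day, and samples were grouped by genotype and day from the sample labels. Per the submitters' processing notes and the study's methods, the authors aligned reads with HISAT2 2.0.5 to protein-coding genes of GRCm38.p5, quantified them with StringTie (version not given in the sources used here) and deposited RPKM values, already scaled for transcript length and depth. Of 22013 rows, 1401 that repeat a symbol were left out.

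Depth was inferred from the RPKM steps, which gave whole reads in every library for 16531 of 16548 rows (tolerance 0.05 reads). Groups were compared with limma 3.58.1 (R 4.3.3) on log2(RPKM + 1), for genes that reached an RPKM of 1 in 2 or more libraries, with 1 mean for each of 9 groups, trended and robust moderation and Benjamini-Hochberg adjustment over 11890 genes in each of 19 comparisons. Python 3.11.15 with pandas 2.3.3 and matplotlib 3.10.9 served for tables and plots. The alternatives were voom on recovered reads, other pseudocounts, filters and scalings, removal of a length trend, plain moderation, a replicate block, the compared groups alone, all rows of repeated symbols and leaving out each library. Scripts were tested on simulated data.

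The members and gene lists were chosen with earlier results of these data known. All 10 members are described in full. From the lists, up to 3 called genes with the largest change in each list and comparison were named, and for members that varied by over 1 log2 unit, the 2 genes of most similar pattern. Genes named outside this rule were chosen after their values were seen. Promoter windows and coordinates come from RefSeq (GRCm38.p6), in which all 10 members were matched by symbol. Results for some genes of the lists are not reported here.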

Additional observations from a re-analysis of the deposited data

Results flagged for a closer look

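In 6 of 40 single values tested, the change of a receptor gene from day 0 to day 1 differed between a mutant and WT by limma's test of the difference itself. In TKO the change of Il1r1 differed from that in WT by -2.87 on the log2 scale (adjusted p = 0.0151) and that of Lifr by -0.977 (adjusted p = 0.00927). In QKO the change of Il4ra differed by -1.13 (adjusted p = 0.0132), that of Osmr by -0.72 (adjusted p = 0.0387), that of Lifr by -0.976 (adjusted p = 0.00999) and that of Ifngr2 by -0.924 (adjusted p = 0.0356). All of these differences share their WT libraries. Each is the gap to WT at day 1 less that at day 0, so its sign partly restates the day 0 rise of the same gene.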

How the results depend on the processing

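Of 43 called member values, 472 of 500 repeats under other settings kept direction and call, 26 kept only direction and 2 reversed. With 1 library left out, 733 of 774 kept both, 41 only direction and 0 reversed. The reversed value was the QKO change of Osmr to day 1 less that of WT, at 0.50 (voom) and 0.14 (pseudocount of 0.1) against -0.72, and its cause was not tested.

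Fitted on the compared groups alone, which leaves fewer samples, the counts of called members became 1 for TKO against WT at day 0 (from 4) and 1 at day 1 (from 0), 2 for QKO against WT at day 0 (from 7), 0 for QKO against TKO at day 0 (from 1), 1 for TKO from day 1 to day 2 (from 0) and 0 for the QKO change to day 1 less that of WT (from 4). QKO against TKO at day 0 gave 0 with a pseudocount of 0.1 and with a mean RPKM of at least 5, and 2 under quantile normalization, median-ratio scaling and removal of the length trend. The mean RPKM filter, which tests fewer members, gave 5 for TKO and 5 for QKO from day 0 to day 1 (from 8 each), and 1 and 2 for the changes of TKO and QKO less WT (from 2 and 4). Voom gave 2 for the latter. WT from day 1 to day 2 gave 1 (from 0) under quantile normalization and removal of the length trend. The cause of these moves was otherwise not tested.

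With each library left out in turn the counts at day 0 ranged from 3 to 4 (TKO), 4 to 8 (QKO) and 1 to 2 (QKO against TKO). From day 0 to day 1 they ranged from 8 to 9 (WT), 8 to 8 (TKO) and 7 to 8 (QKO), for the changes less WT from 1 to 4 (TKO) and 1 to 6 (QKO), for QKO against WT at day 1 from 0 to 1, and elsewhere from 0 to 0.

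The replicate numbers name libraries and nothing says that they pair them: over 36 pairs of groups, the correlation of deviations was -0.385 to 0.55 (median 0.0391), over 0.1 in 10. With a replicate block the counts were 4, 0 and 0 for TKO against WT at days 0, 1 and 2 and 7, 0 and 0 for QKO, and 1 further member value was called, the QKO change of Il1r1 to day 1 less that of WT (-1.82, adjusted p = 0.04).

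The members with few reads (Il6ra and, after day 0, Osmr) are limited by depth. Low values and the scale of the pseudocount set their fold changes, and groups of 2 libraries leave the spread to be shared over all groups.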
